A study of Homo sapiens with 4 samples.

Results

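The proteasome genes described here are the alpha and beta subunits of its core particle (PSMA and PSMB), the ATPase and non-ATPase subunits of its regulatory particle (PSMC and PSMD), its alternative caps (PSME), its inhibitor (PSMF1) and the chaperones that assemble it (PSMG and POMP). They were chosen by symbol, as every probe set whose platform annotation gives a single symbol of these families followed by a number, or POMP. This found 83 probe sets of 54613 on the array, for 43 genes of 19775 with a probe set of their own, and the brightest probe set stood for each gene. The subunit genes PSMA6, PSMB11, PSMC5, PSMD7, PSMD13 and PSME2 were not found by this rule, so the groups below lack them. RNA came from Raji, an established Burkitt lymphoma line, on 4 Affymetrix HG-U133 Plus 2.0 arrays. By the genotype labels 2 arrays were of the control and 2 of the DLEU1 downregulated genotype. The series' design text calls the control a wild-type clone and the other a clone made with TALENs (nucleases built to cut at a chosen DNA site) against the long non-coding RNA gene DLEU1. The treatment label names the TALENs for all 4 samples, the controls included. Each genotype is 1 clone, so a difference between genotypes cannot be told apart from a difference between clones, and the labels do not say whether the duplicates were separate cultures. In a bulk sample, fewer cells with a transcript and less of it in each cell cannot be told apart.

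As background, the proteasome degrades proteins that carry ubiquitin chains. Its barrel-shaped core holds catalytic beta subunits inside, and the regulatory particle at its ends recognises, unfolds and feeds in the substrates. In lymphoid cells and after interferon, the constitutive catalytic subunits PSMB5, PSMB6 and PSMB7 are partly replaced by PSMB8, PSMB9 and PSMB10, which form the immunoproteasome and favour peptides that fit MHC class I molecules.

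Values are the MAS5 intensities as deposited. The arrays were not on a common scale, with trimmed mean intensities of 163 and 131 on the control arrays against 172 and 196 on the DLEU1 downregulated arrays. Differences and tests were therefore taken on log2(intensity + 16) after quantile normalization, as DLEU1 downregulated minus control, with limma and Benjamini-Hochberg adjustment over 32768 probe sets, and the same values without normalization stand beside them as deposited. The scale matters for these genes. Among all 3195 genes at least as bright as the dimmest of the other members once the dim PSMA8 is set aside (mean log2 value of 9.43), the median difference was 0.01 after quantile normalization and 0.36 as deposited, against 0.01 and 0.16 over all probe sets tested. DLEU1 itself read 1363.4 and 1023.8 on the control arrays against 523.7 and 616.9 on the DLEU1 downregulated ones (log2 difference -1.38, adjusted p = 2.9e-06). Among 7 B-cell marker genes the mean intensity over the 4 arrays ran from 232 to 7405, with summed intensities of 12803 to 15316 in the control and 14222 to 16131 in the DLEU1 downregulated clone. Of these 7, CD79A, CD79B, PAX5, CD22 and BLK, 5 in all, fell after quantile normalization and none was called as deposited; their part in the members' results was not tested. No T-cell, monocyte or epithelial marker measured had a mean above 30.8, and the 5 fibroblast markers summed to 193 to 202 in the control clone and 115 to 168 in the other. The control probe sets at the 3' and 5' ends of GAPDH and ACTB, read as a measure of RNA integrity, gave log2 ratios of -0.17 to -0.10 and 0.47 to 0.68.

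More proteasome genes were higher than lower in the DLEU1 downregulated clone. Of 43 members, all of which were tested, 22 rose, 7 fell and 14 were not called. That is 51.2% higher and 16.3% lower, against 17% higher and 16.7% lower among all probe sets tested, 20.6% higher and 20.6% lower among all genes tested, and 33.4% higher and 31.7% lower among the 3195 genes of at least that brightness. As deposited, 23 members rose and 0 fell (53.5% higher), against 17.2% higher and 5.11% lower among all probe sets, 20.3% higher and 5.74% lower among all genes and 32.6% higher and 3.44% lower among the bright ones. At an unadjusted p under 0.05 in the same limma fits, 27 members were higher and 0 lower as deposited (43.5% and 4.72% of the bright genes), and 23 higher and 10 lower after quantile normalization (37.2% and 35.5%). The 22 that rose after quantile normalization also rose as deposited, where PSMA5 was the 1 addition. None of the 7 that fell after quantile normalization was called as deposited, where their differences ran from -0.33 to 0.21. The deposited fit is less precise, with an SE of 0.18 for PSMG2 against 0.04 after quantile normalization, so a call can also be lost for that reason. Median centring of the arrays gave 33 members higher and 1 lower, against 61% and 6.57% of the bright genes and 31.8% and 7.57% of all probe sets. It moves every deposited difference by the same constant, so its signs and sizes are not a separate check on the deposited ones. When eBayes was fitted without an intensity trend, 10 members rose and 2 fell, against 15.4% and 14.6% of the bright genes and 11% and 11% of all probe sets. These 12 were PSMA7, PSMB5, PSMB6, PSMD1, PSMD2, PSMD3, PSMD8, PSMD11, PSMF1 and PSMG3, which rose, and PSMD10 and PSMG2, which fell. The median difference of the members was 0.14 after quantile normalization and 0.52 as deposited. In the deposited intensities, both DLEU1 downregulated arrays read above both control arrays for 34 of 43 members (79.1%), against 43.2% of all genes and 60.9% of the bright ones, and below both for 1 member, PSMG2, against 17.9% and 9.11%.

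The differences were not of 1 size over the complex. They ran from -0.68 to 1.01, with the highest in the regulatory particle, the inhibitor and a core chaperone. The 6 largest rises belonged to PSMD3, PSMF1, PSMG3, PSMB6, PSMD2 and PSMA7, and the 3 largest falls to PSMG2, PSMD10 and PSMD12.

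**Figure D1:**
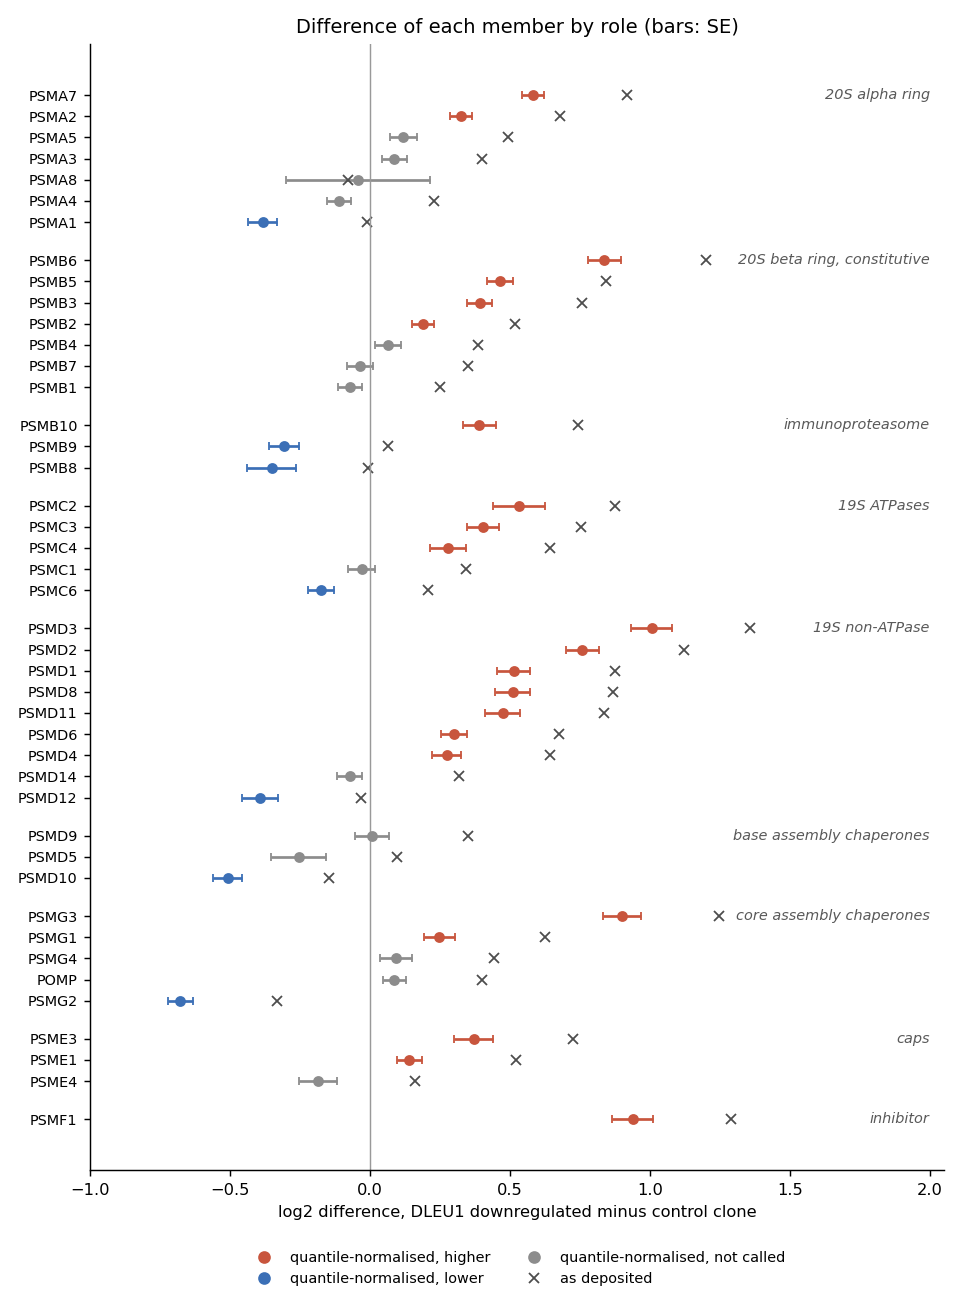
Log2 difference of each of 43 proteasome genes (DLEU1 downregulated minus control clone, brightest probe set), grouped by role. Filled points with SE bars are after quantile normalization, coloured by the call at an adjusted p of 0.05, and crosses are the same probe sets as deposited. The crosses lie to the right of the points for every member except PSMA8, which is dim.

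The catalytic subunits of the core did not move together. PSMB5, which carries the chymotrypsin-like activity, read 1814.6 and 1484.9 on the control arrays against 2770 and 3165.3 on the DLEU1 downregulated ones. PSMB6, the caspase-like subunit, read 1112.2 and 982.2 against 2261.4 and 2592.5, the largest rise of the core. Neither gene's groups overlapped, as in 60.9% of the bright genes in the higher direction. The mean intensity was 1.80-fold higher for PSMB5 and 2.32-fold higher for PSMB6 as deposited. After quantile normalization PSMB5 rose by 0.46 ± 0.05 (SE, limma adjusted p = 1.08e-04) and PSMB6 rose by 0.84 ± 0.06 (adjusted p = 1.5e-05). PSMB7, the trypsin-like subunit, read 3411.4 and 3025.7 against 3876.4 and 4335.3. Its groups did not overlap either, but its difference of -0.04 after quantile normalization (adjusted p = 0.604) and 0.35 as deposited (adjusted p = 0.175) was called on neither scale and changed sign between them.

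Of the 3 immunoproteasome subunits, PSMB8 and PSMB9 were not higher on any scale at the threshold, while PSMB10 was. PSMB8, which takes the place of PSMB5, read 1215.6 and 1185.1 on the control arrays against 1133.1 and 1255.7 on the DLEU1 downregulated ones, so its groups overlapped. PSMB9, which takes the place of PSMB6, read 1970.7 and 1621.9 against 1702.6 and 2048.7, and its groups overlapped too. PSMB8 fell by 0.35 ± 0.09 (SE, adjusted p = 0.0128) and PSMB9 by 0.31 ± 0.05 (adjusted p = 0.00184) after quantile normalization, whereas the differences were -0.01 and 0.06 as deposited, 0.04 and 0.11 after median centring, and -0.33 and -0.26 with a common trimmed mean. The call for PSMB8 was lost without control replicate 2 (-0.22, adjusted p = 0.05) and without either DLEU1 downregulated array (-0.38 and -0.32, adjusted p = 0.0518 and 0.0785). PSMB10, which takes the place of PSMB7, read 986.5 and 836.8 against 1445.7 and 1619.6, with no overlap. It rose by 0.39 ± 0.06 (adjusted p = 9.97e-04), and by 0.74 as deposited (adjusted p = 0.0096). Without an intensity trend none of the 3 immunoproteasome genes was called, with adjusted p = 0.13 for PSMB8, 0.0843 for PSMB9 and 0.0531 for PSMB10 in limma.

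**Figure D2:**
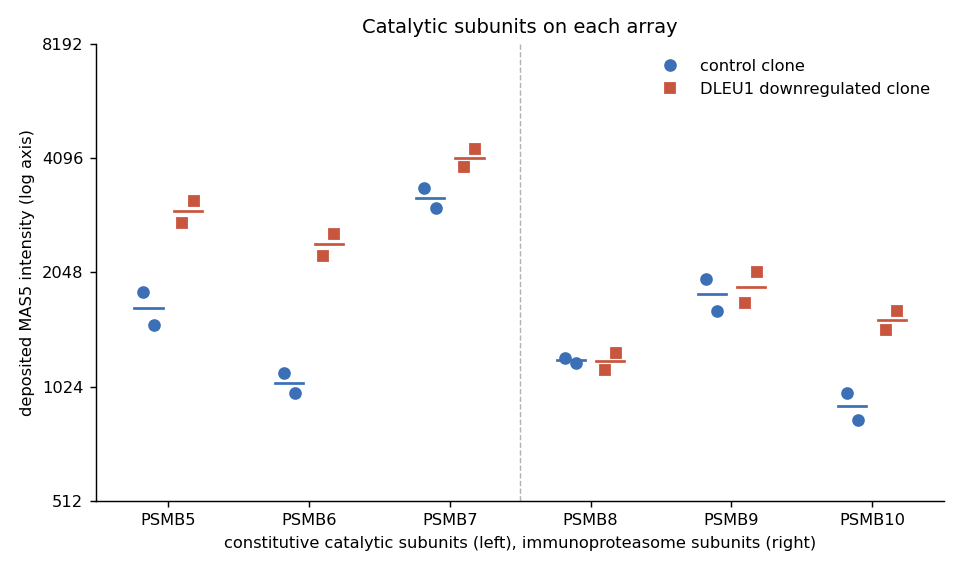
Deposited MAS5 intensity (log axis) of the constitutive catalytic subunits PSMB5, PSMB6 and PSMB7 and the immunoproteasome subunits PSMB8, PSMB9 and PSMB10, 1 point per array and a line at the mean of 2 arrays. The control and DLEU1 downregulated points overlap for PSMB8 and PSMB9 and are apart for the other 4 genes. Heights of different genes are not comparable, since each probe set has its own response.

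A ratio of 2 probe sets within an array hardly depends on a factor that scales a whole array, so it shows unequal change of those probe sets. PSMB5, PSMB6, PSMB8 and PSMB9 rest on 1 probe set each. In some members, probe sets of the same gene differed widely, as given below, so unequal change of the transcripts is not shown directly. The log2 ratio of PSMB8 over PSMB5, from the deposited values, was -0.57 and -0.32 on the control arrays against -1.28 and -1.32 on the DLEU1 downregulated ones. That of PSMB9 over PSMB6 was 0.82 and 0.71 against -0.41 and -0.34. That of PSMB10 over PSMB7 went the other way, from -1.77 and -1.83 to -1.41 and -1.41. In each pair both arrays of a clone lay on the same side of both arrays of the other clone. After quantile normalization the shifts between the clones were -0.82 (SD within clones 0.13), -1.14 (0.063) and 0.43 (0.016), and as deposited -0.85, -1.14 and 0.39. With averaged probe sets per gene the shift of PSMB10 over PSMB7 was 0.17, since a second, dimmer probe set of PSMB7 differed by 0.48 (adjusted p = 0.088). The shifts of PSMB8 and PSMB9 relative to their constitutive counterparts had 1 direction on every scale used, although the fall of each gene by itself did not. Because an array-wide factor largely cancels in a ratio, this agreement among scales is not separate evidence. Exact two-sided permutation tests over arrays gave p = 0.333 for each of the 3 pairs, the lowest that the 6 possible assignments can give, so this test cannot pass a threshold of 0.05. When each immunoproteasome subunit was set against each constitutive catalytic subunit, PSMB8 shifted by -1.19 to -0.32 and PSMB9 by -1.14 to -0.27. PSMB10 shifted by -0.07 against PSMB5 and by -0.45 against PSMB6.

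**Figure D3:**
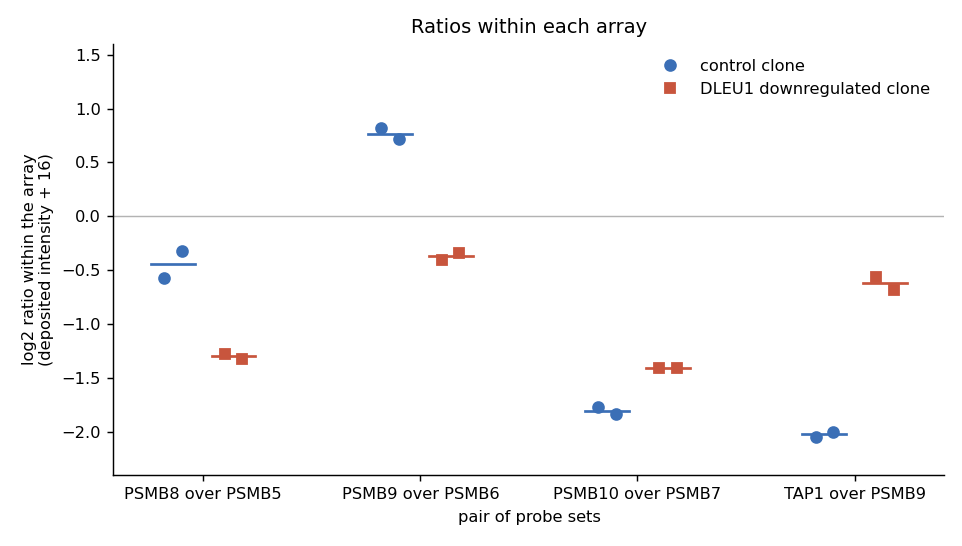
Log2 ratio of 2 probe sets within each array (deposited intensity + 16), 1 point per array and a line at the mean of 2 arrays. PSMB8 over PSMB5 and PSMB9 over PSMB6 are lower on both DLEU1 downregulated arrays, while PSMB10 over PSMB7 and TAP1 over PSMB9 are higher. Only the shift between clones can be read, since the height of a ratio depends on the probe sets.

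Class I peptide loading genes beside PSMB8 and PSMB9 on chromosome 6 rose, which those subunits did not. TAP1, a subunit of the transporter that carries proteasome products into the endoplasmic reticulum, read 464.7 and 392.8 on the control arrays against 1149.7 and 1272.6 on the DLEU1 downregulated ones, and it rose by 1.13 (adjusted p = 8.29e-06). Its partner TAP2 read 1324.7 and 1064.2 against 2179.2 and 2475.1 and rose by 0.59 (adjusted p = 4.29e-05). TAP1 and PSMB9 are divergent neighbours whose RefSeq starts lie 488 bases apart. The log2 ratio of TAP1 over PSMB9, a pair chosen after the values were seen, was -2.05 and -2.00 on the control arrays against -0.56 and -0.68 on the DLEU1 downregulated ones. That is a shift of 1.44 after quantile normalization and 1.40 as deposited, the same on either scale to within its SD within clones of 0.075. Of 10 tested genes of the interferon and class I list, 4 rose and 2 fell (4 and 0 as deposited), with a median of -0.04 against 0.01 over all probe sets tested. The shares called were 33.4% higher and 31.7% lower among bright genes (32.6% and 3.44% as deposited) and 20.6% each way among all genes, so these counts are near that background. The loading chaperone TAPBP rose by 0.76 and the trimming peptidase ERAP1 by 0.42. ERAP2 differed by -0.46 (adjusted p = 0.0643) and NLRC5 and B2M by -0.04 each, and all of these were without a call. The interferon regulatory factors IRF2 (-0.35, adjusted p = 0.0303) and IRF8 (-0.17, adjusted p = 0.0339) fell after quantile normalization, where as deposited they differed by -0.06 and 0.20 with no call. IRF1, the interferon-induced factor known to act at the PSMB9 promoter, differed by -0.15 (adjusted p = 0.243).

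The promoter windows of these genes are shown because the divergent pair PSMB9 and TAP1 differed in the data, with those of PSMB8, PSMB10 and the member with the largest rise, PSMD3, for comparison. Each is 300 bases from RefSeq (GRCh38.p14), from 250 before to 50 after an annotated start, written 5' to 3' on the strand of the gene. Capitals mark matches on either strand to the antioxidant response element core (TGACNNNGC), the CCAAT box (CCAAT), the interferon-stimulated response element by its usual consensus, the gamma-activated site (TTCNNNGAA) and the NF-kB site, likewise by name. The windows are chr6:32843998-32844297 (minus strand, the downstream one of 2 listed starts) for PSMB8, chr6:32853942-32854241 (plus) for PSMB9, chr6:32853655-32853954 (minus, the upstream one of 2 listed starts) for TAP1, chr16:67936801-67937100 (minus) for PSMB10 and chr17:39980557-39980856 (plus) for PSMD3.
PSMB8: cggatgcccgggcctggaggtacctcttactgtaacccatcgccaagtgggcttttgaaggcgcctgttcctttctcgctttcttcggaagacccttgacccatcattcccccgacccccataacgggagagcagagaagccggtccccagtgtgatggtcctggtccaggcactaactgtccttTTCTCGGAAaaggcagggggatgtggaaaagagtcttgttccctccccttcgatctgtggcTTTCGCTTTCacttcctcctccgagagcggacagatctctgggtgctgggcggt
PSMB9: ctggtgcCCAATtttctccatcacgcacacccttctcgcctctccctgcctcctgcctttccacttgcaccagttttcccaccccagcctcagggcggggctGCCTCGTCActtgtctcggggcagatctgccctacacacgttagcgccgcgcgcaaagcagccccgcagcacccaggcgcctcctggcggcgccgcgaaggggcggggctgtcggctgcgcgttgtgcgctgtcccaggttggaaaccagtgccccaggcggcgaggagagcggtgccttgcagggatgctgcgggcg
TAP1: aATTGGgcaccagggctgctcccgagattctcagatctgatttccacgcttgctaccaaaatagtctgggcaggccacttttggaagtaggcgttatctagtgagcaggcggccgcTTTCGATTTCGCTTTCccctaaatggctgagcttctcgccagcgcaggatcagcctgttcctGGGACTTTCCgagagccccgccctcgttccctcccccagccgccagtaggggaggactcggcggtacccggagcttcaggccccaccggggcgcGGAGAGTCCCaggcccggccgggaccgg
PSMB10: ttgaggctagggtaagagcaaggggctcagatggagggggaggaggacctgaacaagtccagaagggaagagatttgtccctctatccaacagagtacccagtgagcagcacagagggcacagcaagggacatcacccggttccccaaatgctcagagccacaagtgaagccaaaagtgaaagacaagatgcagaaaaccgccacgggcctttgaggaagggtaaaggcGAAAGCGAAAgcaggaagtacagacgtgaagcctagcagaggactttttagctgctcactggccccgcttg
PSMD3: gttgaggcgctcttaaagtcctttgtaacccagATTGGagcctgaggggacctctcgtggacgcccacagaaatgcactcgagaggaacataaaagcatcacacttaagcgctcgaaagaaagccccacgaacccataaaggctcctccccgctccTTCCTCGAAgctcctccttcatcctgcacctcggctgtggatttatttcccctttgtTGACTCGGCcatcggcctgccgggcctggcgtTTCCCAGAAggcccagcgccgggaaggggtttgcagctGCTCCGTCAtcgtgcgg
The PSMB9 window holds an antioxidant core and a CCAAT box and no match to the other 3 motifs. The TAP1 window, which shares 13 bases with it, holds 2 overlapping interferon-stimulated elements that begin 134 and 128 bases before the start, and 2 NF-kB matches. Those elements, and the NF-kB match 72 bases before the TAP1 start, lie between the starts of both genes. They fall outside the PSMB9 window only because it ends 250 bases before its start, so the windows do not show them to belong to TAP1 alone. PSMB8 and PSMB10 each hold 1 interferon-stimulated element, beginning 4 and 21 bases before the start. PSMD3 holds 2 antioxidant cores, 2 gamma-activated sites and a CCAAT box.

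A window was listed for 37 of the 43 members, 44 windows in all. None was listed for PSMA7, PSMB6, PSMD4 and PSMG3, which rose, or for PSMB1 and PSMB7, which were not called. An interferon-stimulated element was found in 13.6% of the member windows and in 3.57% of all 35116 windows in the table, and the antioxidant core in 29.5% and 13.3%. A gamma-activated site was found in 18.2% and 7.66%, a CCAAT box in 38.6% and 34.6%, a GC box (GGGCGG) in 63.6% and 45.0%, an E-box (CACGTG) in 6.82% and 7.26%, an NF-kB match in 4.55% and 11.3%, and a heat shock element in 0 of the member windows and 0.49% of all. By gene, with the call of the brightest probe set, the antioxidant core was present for 6 of 18 members that rose, 3 of 7 that fell and 4 of 12 not called. A CCAAT box was present for 11 of 18 that rose, 2 of 7 that fell and 4 of 12 not called. These are matches of letters, and no binding was measured.

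In the rest of the core, the alpha ring, which gates the entry, was near the members' median. Of 7 alpha subunits 2 rose, 1 fell and 4 were not called, with a median of 0.09. Among the bright genes 33.4% were called higher and 31.7% lower. PSMA7 read 4422.3 and 3897.8 on the control arrays against 7446.9 and 8311.2 on the DLEU1 downregulated ones, and it rose by 0.58 (adjusted p = 1.22e-05). PSMA2 read 4244.6 and 3564.7 against 5960.4 and 6517.7 and rose by 0.33 (adjusted p = 2.73e-04). PSMA1 read 3761.9 and 2936.5 against 3167.8 and 3438.8, overlapping groups, and fell by 0.38 (adjusted p = 4.82e-04), but it differed by -0.01 as deposited and 0.03 after median centring. PSMA5, with 3065.9 and 2701.5 against 3837.3 and 4282.4, was higher as deposited (0.49, adjusted p = 0.0451) and not called after quantile normalization (0.12, adjusted p = 0.0897). PSMA3 differed by 0.09 and PSMA4 by -0.11, the latter turning to 0.23 as deposited. PSMA8, an alpha subunit of the testis, stayed near the array median, with intensities of 19, 17.9, 11.1 and 23.3. Of the beta subunits without catalytic activity, PSMB3 read 3335.2 and 2845.2 against 5008 and 5429.2 and rose by 0.39 (adjusted p = 2.17e-04). PSMB2 rose by 0.19 (adjusted p = 0.00588). PSMB4 (0.06) and PSMB1 (-0.07, and 0.25 as deposited) were not called by their brightest probe sets. A dimmer probe set of PSMB4 rose by 0.16 (limma adjusted p = 0.0332), and by 0.54 as deposited (adjusted p = 0.0186). Another was not called (0.10, adjusted p = 0.281). With averaged probe sets PSMB1 was called higher (0.20, limma adjusted p = 0.0347). PSMB4 was not called then (0.11, adjusted p = 0.0853), and the call for PSMB2 was lost (0.21, adjusted p = 0.0673). By the brightest probe sets, 4 of the 7 constitutive beta subunits rose and none of the other 3 fell, against the same bright-gene shares of 33.4% and 31.7%.

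In the regulatory particle more subunits rose than fell. Of 9 non-ATPase subunits 7 rose and 1 fell, with a median of 0.47 (0.84 as deposited), and of 5 ATPases 3 rose and 1 fell, with a median of 0.28 (0.64 as deposited). The bright-gene shares were 33.4% higher and 31.7% lower, and 32.6% and 3.44% as deposited. PSMD3, a scaffold subunit of the lid, read 606 and 488.9 on the control arrays against 1249.2 and 1616.4 on the DLEU1 downregulated ones, a mean of 547 ± 83 against 1433 ± 260 (SD, n = 2 arrays each). It rose by 1.01 ± 0.07 (SE, adjusted p = 1.68e-05), or 1.36 as deposited, the largest difference of the 43 members on both scales. PSMD2, which with PSMD1 forms the large scaffold of the base where substrate shuttles dock, read 1067.7 and 921.1 against 1993 and 2378.6 and rose by 0.76 (adjusted p = 2.6e-05). PSMD1 read 1453.6 and 1075.4 against 2166.9 and 2456.6 and rose by 0.51 (adjusted p = 2.06e-04). The groups of all 3 genes were apart, as in 60.9% of the bright genes in the higher direction.

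Among the other non-ATPase subunits PSMD8 rose by 0.51, PSMD11 by 0.47 and PSMD6 by 0.30, and PSMD4, a receptor for ubiquitin chains, by 0.27, each with groups that did not overlap. Of the bright genes, 60.9% were likewise apart in the higher direction. PSMD14, the deubiquitinase that removes the chain from the substrate, read 3950 and 3369.1 on the control arrays against 4406.4 and 4696.6 on the DLEU1 downregulated ones, with a difference of -0.07 (adjusted p = 0.254) that turned to 0.32 as deposited. PSMD12 was the lid gene that fell, by 0.39 (adjusted p = 0.00155), with 1856.4 and 1485.5 against 1600.7 and 1643 in overlapping groups and a difference of -0.03 as deposited. Its second probe set opposes this, as given below with the probe sets.

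The ATPases unfold the substrate and open the core. PSMC2 read 2964.8 and 3129.3 on the control arrays against 5374 and 5824.8 on the DLEU1 downregulated ones and rose by 0.53 (adjusted p = 0.00223). PSMC3 rose by 0.40 (adjusted p = 7.6e-04), with 1144.2 and 985.8 against 1701.3 and 1906.3. PSMC4 rose by 0.28 (adjusted p = 0.0104), a call lost without either DLEU1 downregulated array (adjusted p = 0.072 and 0.0771). PSMC1 differed by -0.03 (0.34 as deposited) and was not called. PSMC6, with 2575.7 and 2075.9 against 2498.9 and 2850.5, fell by 0.17 (adjusted p = 0.018) but differed by 0.21 as deposited and 0.25 after median centring, and the call was lost without either DLEU1 downregulated array (adjusted p = 0.0932 and 0.0999).

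The assembly chaperones moved in opposite directions. PSMG1 and PSMG2 act as a pair in building the alpha ring, and PSMG3 and PSMG4 as another. PSMG2 read 4956.9 and 3947.1 on the control arrays against 3270.6 and 3756.7 on the DLEU1 downregulated ones, the 1 member whose groups were apart in the lower direction. It fell by 0.68 ± 0.04 (SE, adjusted p = 9.56e-06), and its difference was -0.33 as deposited (adjusted p = 0.189) and -0.29 after median centring (adjusted p = 0.0149). Its partner PSMG1 read 2078.5 and 1556.5 against 2584.5 and 3002.6 and rose by 0.25 (adjusted p = 0.00796), a call lost without DLEU1 downregulated replicate 2 (adjusted p = 0.0576).

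PSMG3 read 728.2 and 590.7 on the control arrays against 1408.8 and 1773.2 on the DLEU1 downregulated ones and rose by 0.90 (adjusted p = 1.88e-05), while its partner PSMG4, with 1501.4 and 1290 against 1801.5 and 1993.9, differed by 0.09 (adjusted p = 0.251). POMP, which guides the beta ring and leaves by being degraded, lies on chromosome 13 as DLEU1 does. It read 5003.4 and 3990 against 5583.4 and 6222.9 and was called on neither scale (0.09 and 0.40, adjusted p = 0.147 and 0.083). Of the 3 chaperones of the base, PSMD10 (also called gankyrin) read 2177.6 and 1851.1 against 1693.5 and 1934.3, in overlapping groups, and fell by 0.51 (adjusted p = 1.11e-04), with a difference of -0.15 as deposited and -0.10 after median centring. PSMD5 (-0.26, and 0.10 as deposited) and PSMD9 (0.01, and 0.35 as deposited) were not called by their brightest probe sets. A second, dimmer probe set of PSMD9 rose by 0.63 (limma adjusted p = 0.0245), and by 0.86 as deposited (adjusted p = 0.00613). With averaged probe sets PSMD9 was called higher too (0.32, limma adjusted p = 0.0361).

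The inhibitor and the caps that compete for the ends of the core also differed from each other. PSMF1, a protein that binds the core and inhibits it in vitro, read 530.8 and 387.6 on the control arrays against 1058.8 and 1212.6 on the DLEU1 downregulated ones. It rose by 0.94 ± 0.07 (SE, adjusted p = 2.39e-05), or 1.29 as deposited. PSME3, the nuclear cap subunit, read 634.1 and 480.8 against 868.7 and 982.9 and rose by 0.37 (adjusted p = 0.003). PSME1, a subunit of the interferon-induced cap, read 3409.5 and 2941.9 against 4374.3 and 4745.6 and rose by 0.14 (adjusted p = 0.035), a call lost without control replicate 1 (adjusted p = 0.0999) and without either DLEU1 downregulated array (0.213 and 0.0878). PSME4, a large single-chain cap, differed by -0.19 (adjusted p = 0.0633) and by 0.16 as deposited. In these 3 cap genes the groups did not overlap in the deposited values, as was so in the higher direction for 60.9% of the bright genes.

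Further probe sets of the same genes gave a second reading. Of the 83 probe sets 77 were tested, 40 of them higher and 10 lower, against 17% higher and 16.7% lower among all probe sets tested. In all, 22 genes had more than 1 tested. In 16 of these 22 genes (72.7%) the brightest probe set had the lowest difference of its gene, against 39.9% of 2174 genes of at least that brightness with more than 1 tested probe set. The dimmer probe sets of PSMC2 rose by 1.13 and 1.40 where the brightest rose by 0.53. That of PSMD11 rose by 1.35, with 106.8 and 109.1 against 362.4 and 377.8, where the brightest rose by 0.47. That of PSMA5 rose by 1.23, with 96 and 81.6 against 264.9 and 291.6, where the brightest was not called. The 4 probe sets of PSMF1 all rose, by 0.71 to 1.14, and the 3 of PSMA1 all fell, by 0.38 to 0.51.

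In 5 genes the tested probe sets differed in sign, and in 1 of them, PSMD12, they were called in opposite directions. The second one read 767.5 and 583.9 on the control arrays against 1102.5 and 1263.5 on the DLEU1 downregulated ones and rose by 0.45 (adjusted p = 6.8e-04), so no single direction can be given for PSMD12. For the others, PSMA3, PSMB1, PSMB7 and PSME4, no tested probe set was called after quantile normalization. PSMB8, PSMB9 and PSMB10, and likewise PSMB5, PSMB6, PSMD2, PSMD3, PSMG2 and PSMG3, rest on 1 probe set each.

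**Figure D4:**
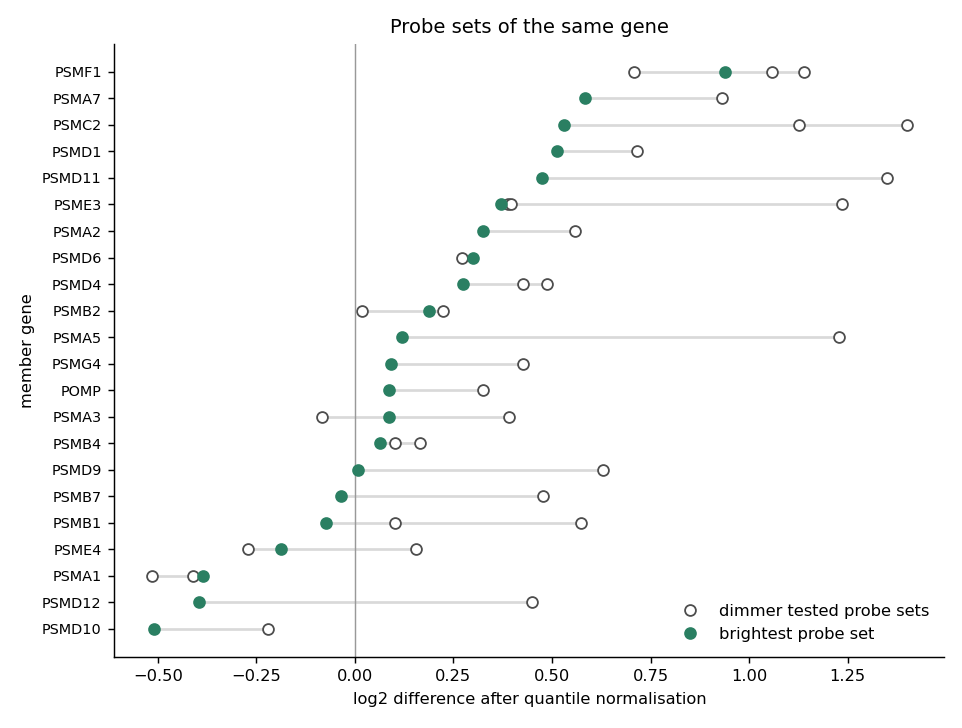
Log2 difference after quantile normalization of every tested probe set of the 22 members with more than 1, sorted by the difference of the brightest probe set (filled). Open points are dimmer probe sets of the same gene. In 16 genes the filled point is the leftmost, and PSMD12 has called points on both sides of 0.

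Several members lay among neighbours that differed in the same direction. Genes of chromosomes 7 and 20 had median differences of 0.30 and 0.28, with members left out, and those of every other numbered chromosome and X lay between -0.17 and 0.10. All 5 members on these chromosomes rose, PSMA2, PSMC2 and PSMG3 on chromosome 7 and PSMA7 and PSMF1 on chromosome 20. Among the bright genes of these chromosomes, 71.3% were called higher. On the other chromosomes 17 of 38 members rose and 7 fell, with a median of 0.09, against 30% higher and 33.7% lower among the bright genes there.

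For each member the median was also taken over up to 20 tested neighbours, 10 on each side in RefSeq order. It was 0.45 around PSMG3, 0.39 around PSMC2, 0.35 around PSMA7 and 0.26 around PSMF1, and 0.08 around PSMA2. Around PSMA1 on chromosome 11 it was -0.57, around PSMG2 on chromosome 18 it was -0.32, and around PSMB8 and PSMB9 it was -0.27 and -0.28. Around PSMB6, PSMD2 and PSMD3, by contrast, it was -0.10, -0.09 and 0.13, while these genes rose by 0.84, 0.76 and 1.01. These values are after quantile normalization. As deposited the neighbours of these 3 genes had medians of 0.16, 0.23 and 0.39, and the genes differed by 1.20, 1.12 and 1.36. The deposited neighbour medians were -0.35 around PSMA1, -0.09 around PSMG2, 0.01 around PSMB8 and -0.19 around PSMB9. Across the 43 members, which share the 4 arrays and some neighbours, Spearman's rho between the 2 values was 0.44 and Pearson's r 0.51. The part of the chromosomal surroundings in the members' differences was not tested.

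**Figure D5:**
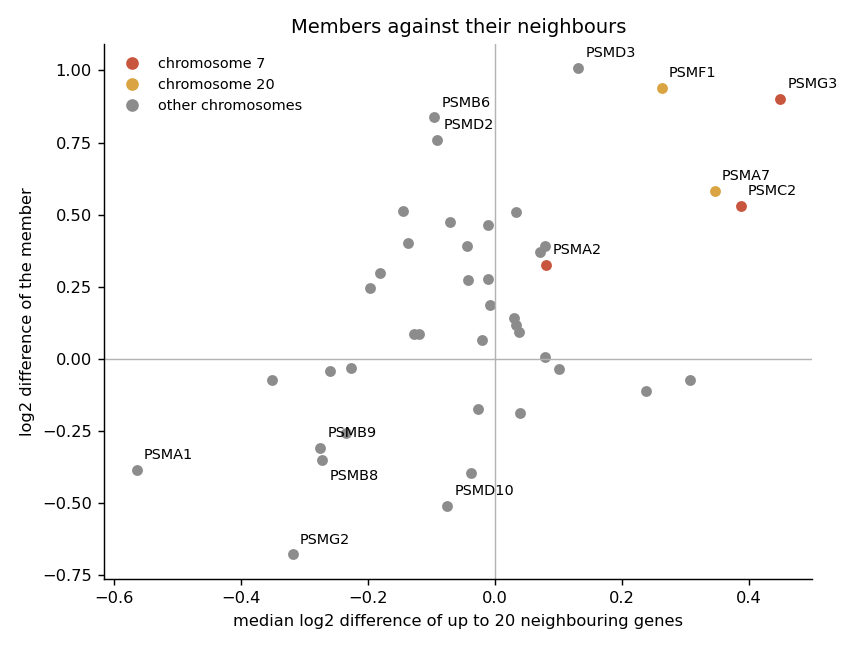
Log2 difference of each of 43 members against the median log2 difference of up to 20 neighbouring genes, both after quantile normalization, with members on chromosomes 7 and 20 coloured. PSMG3, PSMC2, PSMA7 and PSMF1 lie at upper right, PSMA1 and PSMG2 at lower left, and PSMD3, PSMB6 and PSMD2 stand high over neighbours near 0.

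Genes of proteins that work with the proteasome without being among its named members were also counted. Of 14 tested proteasome-bound proteins 9 rose and 1 fell, with a median of 0.36 (0.73 as deposited, 9 higher and 0 lower). The bright-gene shares were 33.4% higher and 31.7% lower, and 32.6% and 3.44% as deposited. ADRM1, a ubiquitin receptor of the base, read 495 and 425.4 on the control arrays against 1275.5 and 1378.6 on the DLEU1 downregulated ones and rose by 1.15 (adjusted p = 8.32e-06). It lies on chromosome 20. UBQLN4, a shuttle for ubiquitinated substrates, rose by 1.16 from 207 and 170.3 to 502.5 and 600.7 (adjusted p = 2.23e-05). The shuttle RAD23B rose by 0.53 (adjusted p = 3.4e-05), and UCHL5, a deubiquitinase that ADRM1 holds, rose by 0.56 (adjusted p = 8.86e-05). TXNL1 fell by 0.19 after quantile normalization but differed by 0.19 in the other direction as deposited.

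NFE2L1 is the factor known to raise proteasome genes when degradation falls short, after VCP has drawn it out of the endoplasmic reticulum and NGLY1 has stripped its sugars. Of 8 tested genes of that list 3 rose and 2 fell (3 and 1 as deposited), with a median of 0.13. The bright-gene shares were 33.4% higher and 31.7% lower (32.6% and 3.44% as deposited). Among all genes they were 20.6% each way (20.3% and 5.74% as deposited), and MAFF, MAFG and NPLOC4 are dimmer than the bright genes. After quantile normalization the counts are near that background. VCP read 773.1 and 598.4 on the control arrays against 2022.4 and 2377.1 on the DLEU1 downregulated ones and rose by 1.29 (adjusted p = 1.85e-06), and its cofactor NPLOC4 rose by 0.67 (adjusted p = 0.00131). MAFG, a small partner of NFE2L1, rose by 0.58 (adjusted p = 0.007). NFE2L1 itself differed by 0.07 (adjusted p = 0.499). NGLY1 fell by 0.34 after quantile normalization (0.00 as deposited), and MAFF, another small partner, fell by 0.80 (-0.69 as deposited). Of the ubiquitin list 3 genes were tested. UBA1, which activates ubiquitin, rose by 0.51 (adjusted p = 7.22e-04), while UBA6 (0.16) and the ubiquitin gene UBB (0.00) were not called.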

How the data were processed

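Gene expression was measured on 4 Affymetrix HG-U133 Plus 2.0 arrays, 2 per clone. The authors deposited a linear MAS5 intensity per probe set, per the submitters' processing notes; MAS5 has a version and a target intensity, not given in the sources used here. No detection calls were used, so no value is said to be above background. The number of arrays limits the precision.

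The 62 control probe sets were left out. Intensities were turned into log2(intensity + 16) and quantile normalized, because the deposited trimmed means (2% off each end) had no common target. Of 54613 probe sets, 21845 below the 40th percentile of mean log2 value were left out. Group alone was fitted in limma 3.58.1 under R 4.3.3, using lmFit and a trended eBayes (prior degrees of freedom 6.75); adjustment was by Benjamini-Hochberg and the threshold 0.05. As deposited, the prior degrees of freedom were infinite. The fit was tested on simulated data. A single symbol was given for 41091 probe sets, several for 1801 and none for 11721 in the platform annotation, which can be old, and 41037 were matched to RefSeq (GRCh38.p14) by gene identifier. No coordinates of the measurements were used, since the files name no build.

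Named were DLEU1, members past the threshold on either scale, all immunoproteasome, cap, inhibitor and assembly members, the constitutive catalytic subunits, members with discordant probe sets, and up to 4 genes with the smallest p in each further list. IRF1, IRF2, IRF8, ERAP2, NLRC5, B2M, NFE2L1, MAFF and TXNL1 were added after their values were seen. The members and lists were chosen with earlier results of these data known. Same-numbered arrays were not shown to be paired, so the replicate number was left out of the fit. Alternatives were other scalings, pseudocounts, filters, eBayes without a trend, a replicate block, leaving out each array, a stricter threshold, no _x_at probe sets and averaged probe sets per gene. Leaving out chromosomes 7 and 20, the background of bright genes, the further pairs of subunits and the TAP1 pair were added after the data were seen.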

Additional observations from a re-analysis of the deposited data

How the results depend on the processing

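The count of members that rose, 22, was 19 to 23 without any 1 array, 21 to 24 with other pseudocounts, other filters, without _x_at probe sets and with averaged probe sets per gene, 22 with a common trimmed mean, 33 after median centring and 17 without chromosomes 7 and 20. The count that fell, 7, was 5 to 7 without any 1 array, 0 as deposited and 1 after median centring. Without an intensity trend 10 rose and 2 fell. Where leaving out an array leaves a clone with 1, that array is assumed to vary like the other clone's. Over all probe sets, 5584 rose and 5488 fell, against 1673 fallen as deposited, 10420 risen and 2482 fallen after median centring, 3589 and 3590 without a trend, and 3592 and 3563 at a threshold of 0.01. Without any 1 array 3352 to 5308 rose and 3653 to 4765 fell.

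Same-numbered arrays did not deviate together (r = -0.01 over 32768 probe sets), and with the replicate number as a block 21 members rose and 8 fell. The shift of PSMB10 over PSMB7 was 0.39 as deposited, median centred or scaled to a common trimmed mean, and 0.17 with averaged probe sets. Without any 1 array the shifts were -0.95 to -0.69 for PSMB8 over PSMB5, -1.21 to -1.10 for PSMB9 over PSMB6 and 0.41 to 0.44 for PSMB10 over PSMB7.

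Of 29 called members 24 kept their call without each array in turn, and PSMB8, PSMC4, PSMC6, PSME1 and PSMG1 did not. The sign turned as deposited for PSMA4 (0.23), PSMB1 (0.25), PSMB7 (0.35), PSMB9 (0.062), PSMC1 (0.34), PSMC6 (0.21), PSMD14 (0.32), PSMD5 (0.10) and PSME4 (0.16). It turned after median centring for the same genes (PSMA4 0.27, PSMB1 0.29, PSMB7 0.39, PSMB9 0.11, PSMC1 0.39, PSMC6 0.25, PSMD14 0.36, PSMD5 0.14, PSME4 0.20) and for PSMA1 (0.034), PSMB8 (0.035) and PSMD12 (0.010). With a common trimmed mean it turned for PSMB7 (0.023) and PSMC1 (0.015), and with averaged probe sets for PSMB1 (0.20), PSMB7 (0.22) and PSMD12 (0.028). Leaving out 1 array gave ranges across 0 for PSMD9 (-0.028 to 0.041), PSMA8 (-0.27 to 0.19) and PSMB7 (-0.078 to 0.0064). The cause was not tested. No sign turned with another pseudocount or filter.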

Other observations

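Genes that share a locus or a name with the members were measured apart from them. PSMB8-AS1, an antisense transcript beside PSMB8, read 424 and 345.3 on the control arrays against 258.5 and 308.3 on the DLEU1 downregulated ones, and it fell by 0.73 after quantile normalization (limma adjusted p = 2.44e-04) with a difference of -0.42 as deposited (adjusted p = 0.252). PSMA3-AS1 fell by 0.37 after quantile normalization (adjusted p = 0.0104) and differed by -0.04 as deposited, while PSMG3-AS1, from means of 11.2 to 38.1, rose by 1.04 (adjusted p = 0.0144). PSMC3IP, a recombination factor that binds PSMC3, fell by 0.40 after quantile normalization (adjusted p = 0.00967) and differed by -0.06 as deposited. PSME3IP1, which binds PSME3, rose by 0.23 (adjusted p = 0.0254), and as deposited its difference of 0.59 was not called (adjusted p = 0.0646). PSMG3-AS1 is dim, and the added 16 shrinks its log2 difference.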
